A study of Saccharomyces cerevisiae with 4 samples.

Results

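Transcript ratios of the genes that make chitin, a minor but structurally important polymer of the yeast cell wall, were read from 4 two-channel arrays of a dedicated cell wall chip. The rule names the genes by their role and uses no measured value, although it was written with earlier results of these data known. They are the 4 genes of precursor synthesis (GFA1, GNA1, PCM1 and QRI1), the chitin synthases CHS1, CHS2 and CHS3, the Chs3 activator SKT5, and CHS7 and CHS5, which act in the transport of Chs3. Of these 10 genes, 8 had spots under their name in the chip's annotation, out of 353 named genes, and all 8 had a value on each of the 4 arrays. CHS2 and CHS5 were not analysed here. Both RNAs on every array came from Saccharomyces cerevisiae BY4741, a haploid laboratory strain, lacking HOG1, the gene of the osmotic stress MAP kinase. One RNA was from cells grown for 4 h in the presence of Congo Red at 30 µg/ml, a wall-binding dye with affinity for chitin and glucan that interferes with wall assembly. The other was from the part of the same culture in the rich medium YEPD, grown at 24 °C, that received no dye. No strain with HOG1 was analysed here, and the labels do not say whether the 4 arrays came from separate cultures, so the p-values may measure technical spread alone.

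Chitin is a chain of N-acetylglucosamine units. In the cytosol, Gfa1 converts fructose 6-phosphate and glutamine to glucosamine 6-phosphate, Gna1 acetylates it, Pcm1 (also known as Agm1) moves the phosphate, and Qri1 (also known as Uap1) makes UDP-N-acetylglucosamine. The synthases in the plasma membrane polymerise this sugar nucleotide, which is also used for glycoproteins and GPI anchors. Chs3, with its activator Skt5, makes most of the chitin of the lateral wall and of the ring at the bud neck, and needs Chs7 to leave the endoplasmic reticulum. Chs1 is known as a repair synthase at cell separation. More chitin in the wall is a well-known answer of yeast to wall damage.

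Each deposited value is the log2 ratio between both channels for 1 spot, and a gene's value is the mean of its 2 spots. The sources used here do not state which RNA is the numerator, and it was taken to be the Congo Red RNA. That direction is likely only: genes known to be induced by wall stress are then higher, a reason that uses these same values. If the ratio ran the other way, every sign below would turn. Channel 2 held the treated RNA on arrays 1 and 3, and channel 1 held it on arrays 2 and 4. All arrays were taken as running the same way, since those that differ in channel order correlated positively, with a mean r of 0.15 over all spots and of 0.40 over the 328 genes valued on 4 arrays (across spots or genes, which are not independent replicates). Arrays that share a channel order correlated more closely, at 0.77 and 0.70 over all spots. The mean of 0.15 lies below the 0.3 preset for calling the turning settled, so it is not settled. With arrays 2 and 4 turned, limma called 0 of all 348 tested genes (27 higher and 6 lower at an unadjusted p under 0.05), and so 0 of the 8 (0 also at an unadjusted p under 0.05). Array medians over named genes lay between -0.12 and 0.23. The actin gene ACT1 averaged 0.06 ± 0.13 on the log2 scale (SD, n = 4). HOG1 measured 1.43, -1.73, -0.23 and 1.25 (log2 ratio, arrays 1 to 4). Where the HOG1 probe lies relative to the deletion is unknown here, so its spots check nothing.

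After Congo Red, 4 of the 8 chitin synthesis genes were higher and 0 were lower (limma adjusted p under 0.05 over 348 tested genes). The higher genes were GFA1 and PCM1 of the precursor pathway, the synthase gene CHS1 and the export gene CHS7. Over all tested genes 17.0% were called higher and 3.74% lower, so 4 of 8 lies above the background of this chip. That background mixes wall genes with others, such as ACT1, ADH1 and PGK1. At an unadjusted p under 0.05, 5 of the 8 were higher, with CHS3 added, and 0 were lower, against 24.7% and 7.76% of all tested genes. The median log2 ratio of the 8 genes was 0.69, against 0.02 over all tested genes. In RNA from a whole culture, more transcript per cell and a larger share of cells that express a gene cannot be told apart.

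Within the precursor pathway, the genes of the first and the third step were higher, and those of the second and the fourth were not. GFA1 (YKL104C), which encodes the glutamine-dependent amidotransferase known to control entry into the pathway, measured 1.33, 0.63, 1.58 and 0.93 (log2 ratio, arrays 1 to 4). All 4 were above 0, with arrays 1 and 3 highest. Its mean of 1.11 ± 0.42 (SD, n = 4) is a 2.16-fold rise (95% interval 1.55 to 3.03; limma adjusted p = 0.0152). PCM1 (YEL058W), the gene of the phosphoacetylglucosamine mutase, measured 0.81, 1.12, 1.06 and 1.62 in the same order. Here array 4 was highest and array 1 lowest, the reverse of GFA1 in the grouping of the arrays. PCM1 rose 2.22-fold (log2 1.15 ± 0.34, SD, n = 4; 95% interval of the fold 1.66 to 2.96; limma adjusted p = 0.00874).

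GNA1 (YFL017C), the gene of the acetyltransferase between these steps, measured -0.67, -0.37, -0.24 and 0.09 (log2 ratio, arrays 1 to 4). Array 4 was above 0 and the others below. The mean of -0.30 ± 0.31 (SD, n = 4) did not pass (limma adjusted p = 0.278), and its 95% interval ran from -0.69 to 0.10 on the log2 scale, that is from 0.618 to 1.07 times the untreated level. QRI1 (YDL103C), the gene of the pyrophosphorylase that ends the pathway, measured -0.0043, -0.73, 0.08 and -1.03 in the same order. Arrays 1 and 3 lay near 0, and arrays 2 and 4 below it. The mean of -0.42 ± 0.54 (SD, n = 4) did not pass (limma adjusted p = 0.288), with a 95% interval from 0.499 to 1.12 times the untreated level. For both genes this interval leaves out a 1.5-fold rise but includes a 1.5-fold fall.

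**Figure D1:**
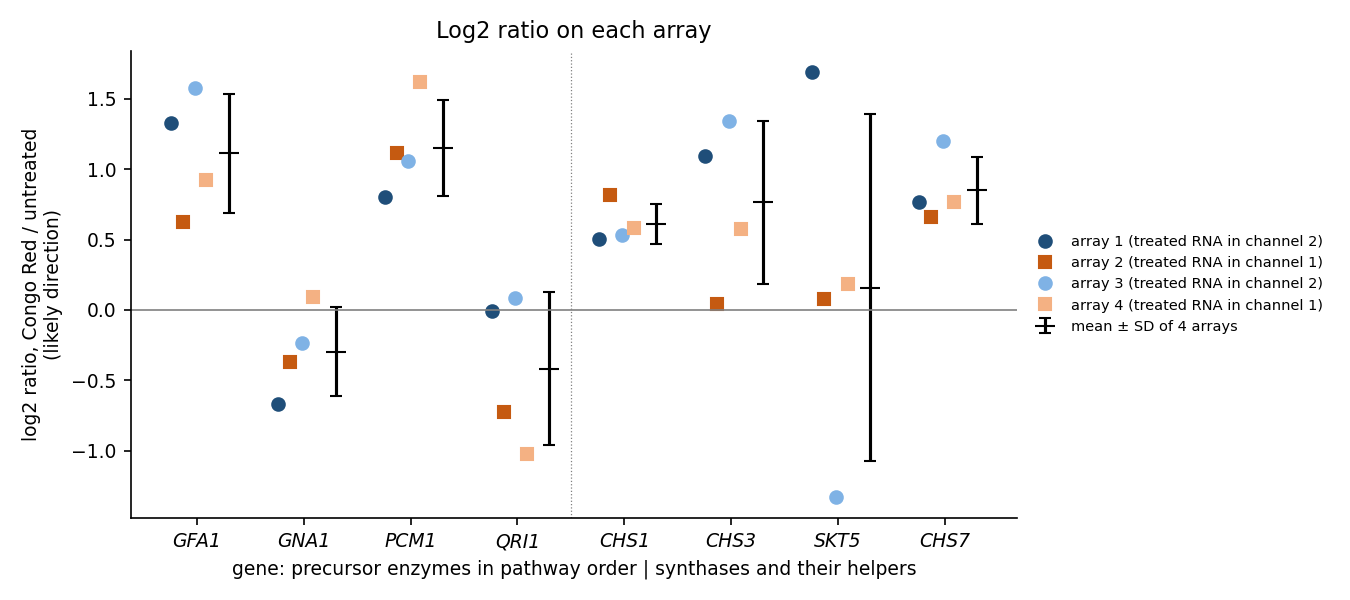
Log2 ratio of Congo Red over untreated RNA (y axis, likely direction) of the 8 chitin synthesis genes (x axis), with a circle or square for each array and, in black, the mean ± SD of the 4 arrays. GFA1, PCM1, CHS1 and CHS7 lie above 0 on every array, CHS3 nears 0 on array 2 (0.04), and SKT5 spans -1.33 to 1.69.

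With the arrays as deposited, the split between the steps was present within each array. The differences use the same values as the means above, so they largely restate them. GFA1 minus GNA1 was 2.00, 1.00, 1.81 and 0.84 log2 units on arrays 1 to 4, and GFA1 minus QRI1 lay between 1.33 (array 1) and 1.95 (array 4). PCM1 minus GNA1 was 1.47, 1.49, 1.29 and 1.53, a mean of 1.45 with an SD of 0.10, which is smaller than the SD of either gene alone. PCM1 minus QRI1 varied most of these, with 0.81, 1.84, 0.98 and 2.65. All 4 differences were above 0 on 4 of 4 arrays, with means of 1.41 to 1.57. Each had an exact two-sided sign-flip permutation p of 0.125, the smallest that 4 arrays allow. After adjustment over the 12 pairs compared it was 0.375, so none passed. With arrays 2 and 4 turned, GFA1 minus GNA1 averaged 0.49 and GFA1 minus QRI1 averaged -0.12. PCM1 minus GNA1 and PCM1 minus QRI1 then averaged -0.063 and -0.68, so the split depends on the direction of the arrays. In the remaining pairs the sign followed channel order. GFA1 minus PCM1 was 0.52 on both arrays 1 and 3, and -0.49 and -0.70 on arrays 2 and 4, with a mean of -0.04 ± 0.65 (SD, n = 4; exact permutation p = 1). GNA1 minus QRI1 was -0.66 and -0.32 on arrays 1 and 3, and 0.35 and 1.12 on arrays 2 and 4, with a mean of 0.12 ± 0.79 (SD, n = 4; exact permutation p = 0.75).

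**Figure D2:**
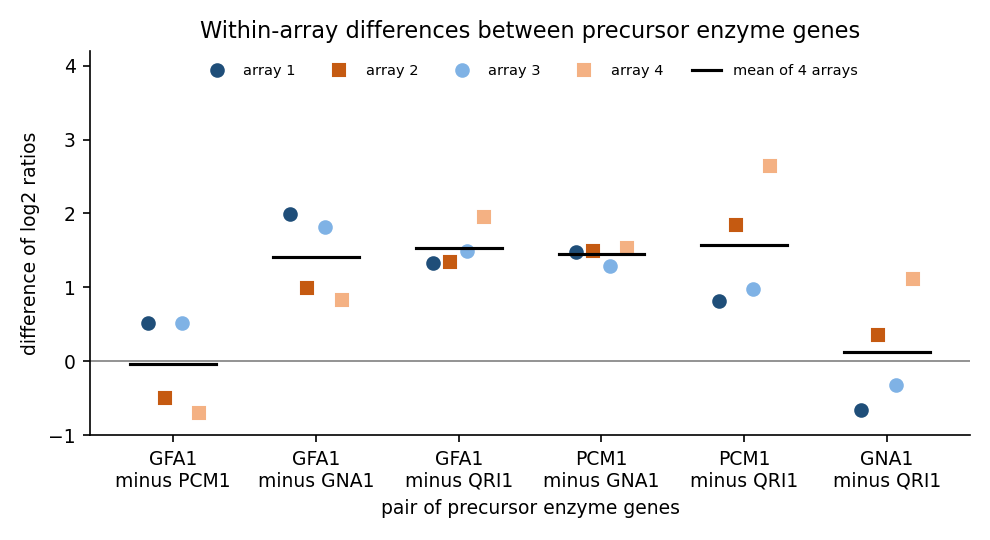
Difference of log2 ratios between 2 precursor enzyme genes on the same array (y axis) for the 6 pairs (x axis), with a circle or square for each array and a line at the mean of the 4 arrays. The 4 pairs that set GFA1 or PCM1 against GNA1 or QRI1 lie above 0 on every array (means 1.41 to 1.57), and the other 2 pairs straddle 0, with arrays 1 and 3 on one side and arrays 2 and 4 on the other.

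Of the genes that act after the precursor, CHS1 and CHS7 were higher, CHS3 was not called, and SKT5 varied too much between arrays to be read. CHS1 (YNL192W) measured 0.51, 0.82, 0.53 and 0.59 (log2 ratio, arrays 1 to 4), the smallest spread of the 8 genes. It rose 1.53-fold (log2 0.61 ± 0.14, SD, n = 4; 95% interval of the fold 1.25 to 1.86; limma adjusted p = 0.0195). The call was lost when any single array was left out (limma adjusted p = 0.0574 to 0.0717), although its mean then stayed between 0.54 and 0.64. CHS7 (YHR142W), whose product is needed for Chs3 to leave the endoplasmic reticulum, measured 0.77, 0.66, 1.20 and 0.77 in the same order. Arrays 1, 2 and 4 lay close together and array 3 higher. CHS7 rose 1.80-fold (log2 0.85 ± 0.24, SD, n = 4; 95% interval of the fold 1.42 to 2.29; limma adjusted p = 0.0129).

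CHS3 (YBR023C), the gene of the synthase that Chs7 brings to export, measured 1.10, 0.04, 1.34 and 0.58 (log2 ratio, arrays 1 to 4). Every value was above 0, but array 2 barely so, and that value rests on 1 spot because the other had none. The mean of 0.76 ± 0.58 (SD, n = 4) did not pass over all tested genes (limma unadjusted p = 0.0244, adjusted p = 0.0942), with a 95% interval of the fold from 1.11 to 2.60. Without array 2, CHS3 passed (log2 1.00, limma adjusted p = 0.0321), and without array 1, 3 or 4 it did not (0.168 to 0.245). CHS3 minus CHS7 averaged -0.09 ± 0.42 on the same array (SD, n = 4; exact permutation p = 0.75), ranging from -0.62 to 0.33, and CHS1 minus CHS3 averaged -0.15 ± 0.71 (exact permutation p = 0.75). Neither pair was told apart, and with this spread neither was shown to be alike.

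SKT5 (YBL061C, also known as CHS4), the gene of the Chs3 activator, had the widest spread of the 8 genes. It measured 1.69, 0.08, -1.33 and 0.19 (log2 ratio, arrays 1 to 4), so that array 1 and array 3, which share a channel order, stood at opposite ends. The 2 spots of SKT5 nevertheless lay within 0.26 of each other on every array. Its SD over arrays, 1.23, compares with a median of 0.28 over tested genes, and its mean of 0.16 did not pass (limma adjusted p = 0.890; 95% interval -1.07 to 1.38). Without array 1 the mean was -0.35 and without array 3 it was 0.65. The duplicate spots of the other 7 genes differed by at most 0.04 (GNA1) to 0.41 (CHS3, array 4), and for CHS1 the largest gap between duplicates, 0.22, exceeded the SD over arrays.

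Ordered by mean log2 ratio, the genes ran PCM1 (1.15), GFA1 (1.11), CHS7 (0.85), CHS3 (0.76), CHS1 (0.61), SKT5 (0.16), GNA1 (-0.30) and QRI1 (-0.42). For 6 of the 7 pairs of neighbours in this order the mean difference within an array was smaller than its SD over arrays. The remaining pair, GFA1 and CHS7, differed by 0.26 ± 0.26 (SD, n = 4), positive on 3 arrays. The order is therefore a description and does not rank neighbours, and it depends on the direction of the arrays. With arrays 2 and 4 turned it ran QRI1 (0.46), CHS3 (0.46), GFA1 (0.34), CHS7 (0.13), SKT5 (0.03), CHS1 (-0.090), GNA1 (-0.16) and PCM1 (-0.22). Among the 348 tested genes PCM1 and GFA1 stood at places 29 and 30 from the top, above 91.9% and 91.6% of the others. With arrays 2 and 4 turned their places were 297 and 65, and with the untreated RNA as numerator they would be 320 and 319. In the likely direction CHS7 stood above 87.0%, CHS3 above 85.3% and CHS1 above 79.8% of the others, while GNA1 stood above 15.6% and QRI1 lower still, at place 310 from the top. The same sign on all arrays was found for 5 of the 8 genes (GFA1, PCM1, CHS1, CHS3 and CHS7), all positive, against 27.3% of tested genes that were positive on every measured array.

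**Figure D3:**
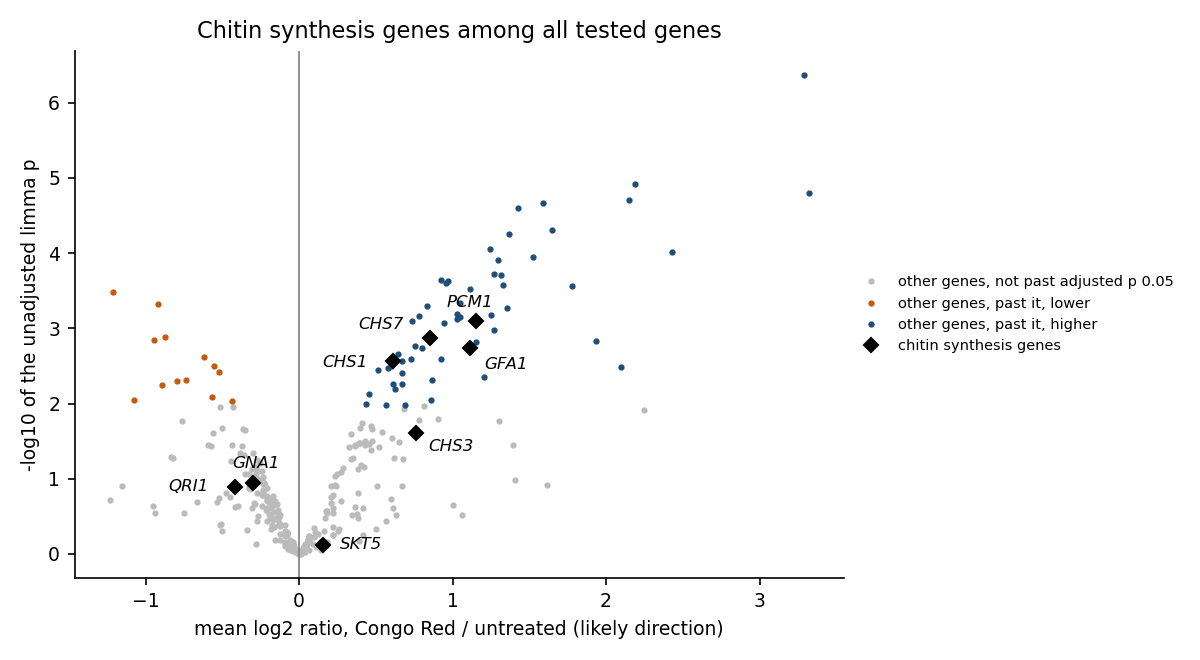
Mean log2 ratio over the arrays (x axis) against -log10 of the unadjusted limma p (y axis) for the 348 tested genes, with the 8 chitin synthesis genes as black diamonds. PCM1, GFA1, CHS7 and CHS1 lie among the higher genes past the threshold, CHS3 just under them at a larger mean than CHS1, and SKT5 near the origin.

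Mean ratios of several of these genes differed between the channel orders, although for no gene past the adjusted threshold with the values as deposited. CHS3 averaged 1.22 on arrays 1 and 3 and 0.31 on arrays 2 and 4, QRI1 averaged 0.04 and -0.88, and GFA1 averaged 1.45 and 0.78. PCM1 leaned the other way, with 0.93 on arrays 1 and 3 and 1.37 on arrays 2 and 4, and so, less, did GNA1 (-0.45 and -0.14) and CHS1 (0.52 and 0.70). In a limma model with a second coefficient for channel order, that coefficient passed for none of the 8 genes (adjusted p from 0.0727 for QRI1 to 0.971 for SKT5), against 6.61% of tested genes. With the arrays centred on their medians, an alternative added after the data were seen, it passed for GFA1 (coefficient 0.27, limma adjusted p = 0.0465). At an unadjusted p under 0.05 it passed for 3 of the 8, QRI1 (0.00751), CHS3 (0.0159) and GFA1 (0.0302), against 26.1% of tested genes. The means of GFA1, PCM1, CHS1, CHS3 and CHS7 were above 0 in both channel orders.

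With that term in the model, 5 of the 8 genes were higher and 1 was lower, against 25.0% and 9.77% of tested genes. The gain was CHS3 (limma adjusted p = 0.00784) among the higher and QRI1 (adjusted p = 0.0356) as the lower gene. GFA1, PCM1, CHS7 and CHS1 passed there too (adjusted p = 0.00153, 0.00175, 0.00400 and 0.00803). GNA1 and SKT5 did not (adjusted p = 0.165 and 0.847). For these 8 genes, each valued on all arrays, the means are the same in both models. The estimated spread, its degrees of freedom and the adjustment over all tested genes differ.

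**Figure D4:**
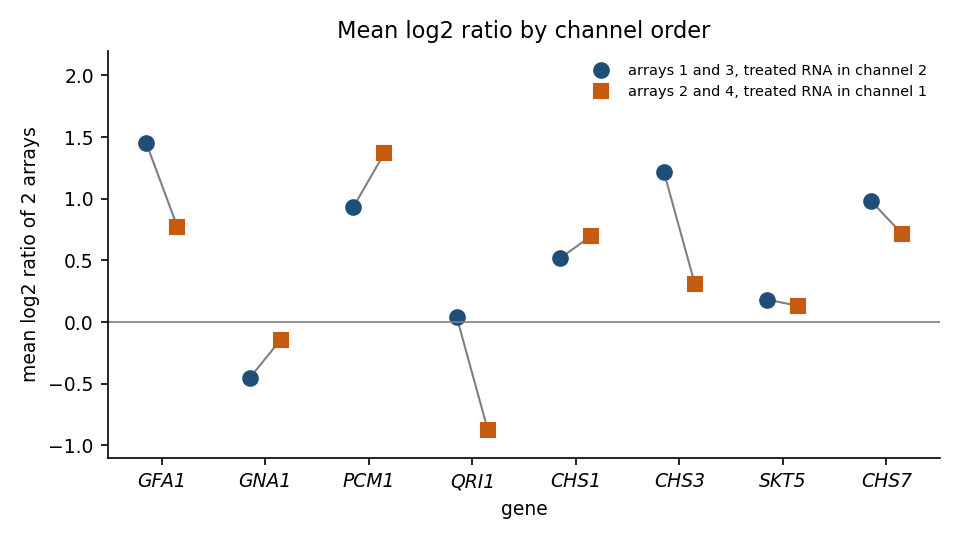
Mean log2 ratio (y axis) of each chitin synthesis gene (x axis) over arrays 1 and 3 (circles, treated RNA in channel 2) and over arrays 2 and 4 (squares, treated RNA in channel 1), joined by a line. CHS3 and QRI1 show the widest gaps (0.91 each), and PCM1, GNA1 and CHS1 slope the other way.

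Leaving out single arrays changed which genes passed but no direction among the 4 higher genes. PCM1 and CHS7 passed without any 1 array (limma adjusted p = 0.0216 to 0.0412 for PCM1 and 0.0260 to 0.0477 for CHS7). GFA1 lost the call without array 1 (adjusted p = 0.0627) or array 3 (0.0522), with log2 ratios of 1.04 and 0.96. The number of higher genes was 2 without array 1 or array 3, 3 without array 4 and 4 without array 2, where CHS3 took the place of CHS1. Calls dropped over the whole chip as well: the share of tested genes called higher was 11.7%, 13.8%, 9.97% and 12.6% without array 1, 2, 3 and 4 in turn, against 17.0% with all 4. These fits kept genes with 3 values. When genes left with 2 values were kept as well, a choice made after the data were seen, 0 of the 8 passed without array 3 (limma, 4 at an unadjusted p under 0.05), PCM1 alone passed without array 1 or array 4, and the count without array 2 stayed at 4. In these fits 25 to 49 of all 348 genes were higher.

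**Figure D5:**
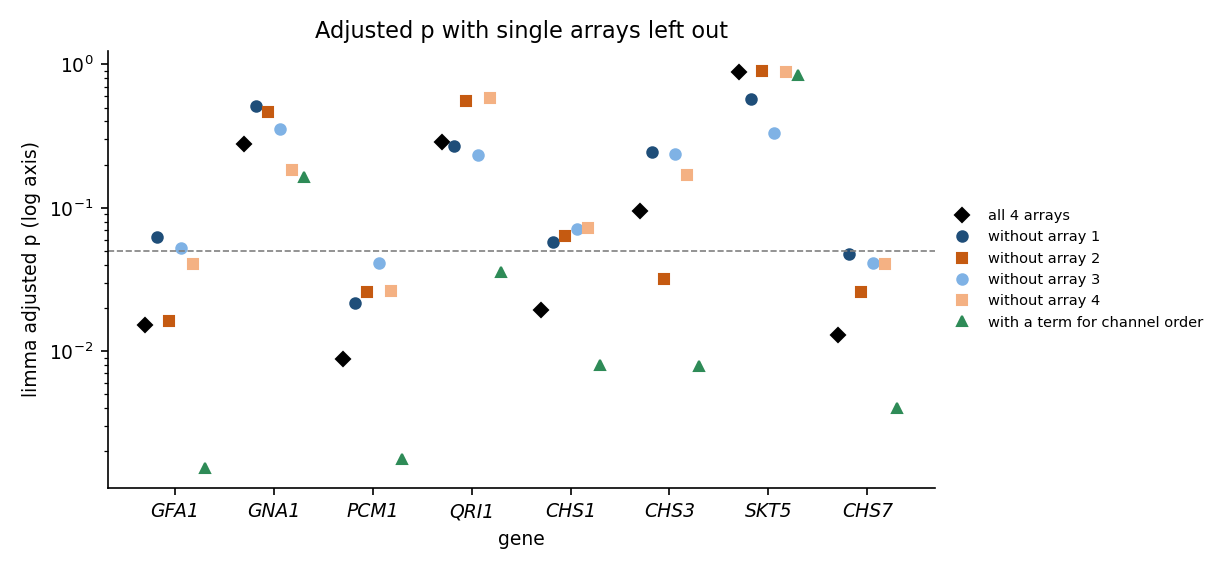
Limma adjusted p (y axis, log scale) of each chitin synthesis gene (x axis) with all 4 arrays, with each array left out, and with a term for channel order, against a dashed line at 0.05. PCM1 and CHS7 stay under the line throughout, CHS1 crosses it whenever an array is left out, and CHS3 falls under it without array 2 or with the term.

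Few other genes of chitin metabolism could be set beside them. Of a list of 16 (wall cross-linkers, chitinases, deacetylases, transport and regulatory genes), 3 were tested, of which 1 was higher and 0 were lower (0 lower also at an unadjusted p under 0.05). CRH1 (YGR189C), whose product links chitin to glucan, lay between 0.96 (array 1) and 1.52 (array 2) on the log2 scale and rose 2.49-fold (limma adjusted p = 0.00489), a larger mean than that of any of the 8 genes. UTR2 (YEL040W, also known as CRH2), which encodes a related cross-linker, measured -0.27, -0.11, -0.07 and 0.13 (log2 ratio, arrays 1 to 4) and did not pass (adjusted p = 0.709). RCR1 (YBR005W), a membrane protein gene first described for Congo Red resistance, had values of -0.63, -0.28, -0.27 and -0.04, all below 0, and did not pass either (adjusted p = 0.202). For the other main wall polymer, the glucan synthase genes GSC2 and FKS1 had mean log2 ratios of 1.78 and 1.03.

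The genes whose log2 ratios lay nearest to those of a chitin synthesis gene were found by the root mean square difference over the 4 arrays, among 320 other genes valued on all of them. With so few arrays this likeness mostly restates similar means. CHS7 had the nearest neighbour of the 8 genes, BGL2 (0.06 log2 units away), followed by ANS1 and PUN1. CHS1 was nearest to RGA1 (0.07), FIG2 and TIR2, and GNA1 to RCR1 (0.08), TPI1 and RER2. PCM1 was nearest to TOH1 (0.14), ALG9 and NFG1, and GFA1 to YPS1 (0.18), FBP26 and DFG5. QRI1 was nearest to BEM2 (0.18), ADH1 and HSP104, and CHS3 to TRS65 (0.20), VTH2 and KRE6, each of which showed the same alternation between arrays 1 and 3 and arrays 2 and 4. SKT5 had no close neighbour, with PLB1 at 0.76, ECM5 and VRP1 next. Among the 8 genes themselves the closest pair was GFA1 and CHS7, 0.35 apart.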

How the data were processed

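Per the labels, each array compared total RNA of Congo Red treated and untreated hog1Δ cells in 2 channels. The authors deposited a log2 ratio per spot. The base was read from the values. Not given in the sources used here are the scanner, background correction, normalization, dyes and numerator. Values of array 4 have at most 2 decimals and those of arrays 1 to 3 up to 4. Whether array 4 was processed differently is not known here. No intensities were used. Of 896 spots, 724 carry 1 gene in the platform's annotation, 10 several and 162 no name here. The 353 genes were matched to the R64 gene table for names only, and no coordinates are given because the files name no build.

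Spots of a gene were averaged on each array. Genes with values on at least 3 arrays (348) were tested against 0 in limma 3.58.1 under R 4.3.3 (lmFit, eBayes). P-values were adjusted by Benjamini-Hochberg over all 348 genes, with a threshold of 0.05. The fit was tested on simulated arrays drawn independently, so that test does not cover the likeness between arrays that share a channel order. Intervals are limma's 95% intervals, not adjusted. Pairs of genes were compared with exact sign-flip tests (scipy 1.17.1). The number of arrays limits the precision.

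The genes, lists and tests were chosen with earlier results of these data known. Named genes were the 8 chitin synthesis genes, the genes of 2 lists that are on the chip, the 3 nearest genes of each, and ACT1, HOG1, FKS1 and GSC2. Alternatives were centring, scaling, turning of arrays 2 and 4, a channel order term, averaged array pairs, array weights, robust variance, limits on missing values, single spots, a fold threshold of 1.5 and each array left out.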

Additional observations from a re-analysis of the deposited data

How the results depend on the processing

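The 4 higher genes (GFA1, PCM1, CHS1 and CHS7) kept their calls with arrays centred or scaled, array weights, robust variance, either limit on missing values, either single spot, the 1.5-fold threshold and the channel order term. With arrays 2 and 4 turned, limma called 0 of all genes (27 higher and 6 lower at an unadjusted p under 0.05), 0 of the 8 chitin synthesis genes and 0 of either list (0 at an unadjusted p under 0.05 as well). The log2 ratios were then 0.34 for GFA1, -0.22 for PCM1, 0.46 for QRI1, -0.090 for CHS1 and 0.13 for CHS7, and the differences 0.56 for GFA1 minus PCM1, 0.49 for GFA1 minus GNA1, -0.12 for GFA1 minus QRI1, -0.063 for PCM1 minus GNA1, -0.68 for PCM1 minus QRI1 and -0.61 for GNA1 minus QRI1. The channel order term brought in CHS3 (0.76) as higher and QRI1 (-0.42) as the 1 lower gene, and gave 34 lower genes in all, against 13 without it. With arrays 1 and 2 and arrays 3 and 4 averaged, CHS1 (0.61) lost its call (limma adjusted p = 0.121) and CHS3 (0.76) gained one (0.0382). Centring gave 23 and scaling 30 lower genes in all. Centred, the channel order coefficient was 0.27 for GFA1 and passed (adjusted p = 0.0465), and was -0.043 for SKT5, an alternative added after seeing the data. Within arrays 1 and 3, GFA1 minus PCM1 was 0.52 and GNA1 minus QRI1 was -0.49, and within arrays 2 and 4 they were -0.59 and 0.73.

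Over fits without 1 array, including those that kept genes with 2 values, the log2 ratio ranged from 0.96 to 1.28 for GFA1, 0.99 to 1.27 for PCM1, 0.54 to 0.64 for CHS1, 0.57 to 1.00 for CHS3, 0.73 to 0.91 for CHS7 and -0.35 to 0.65 for SKT5. GFA1 minus PCM1 ranged from -0.22 to 0.18 and GNA1 minus QRI1 from -0.21 to 0.38. Between 0 and 4 of the 8 genes were higher, and in all 25 to 49 genes were higher and 2 to 6 lower (0 of the 8 lower throughout). In the list of genes that supply or use the precursor, 1 gene was higher. That count was 2 with the channel order term, which added GPI1, or with averaged pairs. It was 0 with the first or the second spot alone. SPT14, the higher gene, had no value on array 4. SPT14 was thus not tested among genes valued on 4 arrays, nor without array 1, 2 or 3 where 3 values were required. The count was 0 among genes valued on 4 arrays and 0 to 1 without 1 array. The cause of the other shifts was not tested. No pairing beyond that within each array was possible, because the 4 arrays form 1 group and no replicate number is shared between groups. Each ratio already sets both RNAs of an array against each other, and the averaged array pairs are given above.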

Other observations

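Of 14 genes that supply the precursor pathway or draw on its product, 3 were tested, 1 higher and 0 lower (limma adjusted p under 0.05, also 0 lower at an unadjusted p under 0.05). The higher gene was SPT14, which encodes the catalytic subunit of the transferase that uses UDP-N-acetylglucosamine in the first step of GPI anchor synthesis. It measured 1.60, 0.75 and 1.27 (log2 ratio, arrays 1 to 3), with no value on array 4 (adjusted p = 0.0268), and with either spot alone it did not pass. GPI1, a further subunit gene of that transferase, had values of -0.23, -0.21 and 3.64 on arrays 1, 3 and 4, and did not pass (adjusted p = 0.486). It counted as higher with the channel order term, where array 4 alone stood for its channel order because array 2 had no value. GLK1, a glucokinase gene, measured -0.14, -0.10, 0.06 and 0.16 and did not pass either (adjusted p = 0.983).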
